A study of Mus musculus with 14 samples.

Results

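The 39 Hox genes of the mouse clusters A, B, C and D were followed through a course in which embryonic stem cells (ESC) were driven towards extraembryonic endoderm (XEN) fate, with established XEN lines alongside. The members were all rows whose symbol is Hox, a cluster letter from a to d and a number, which gave 39 of 23174 rows. Cluster A held 11 of them, cluster B 10, cluster C 9 and cluster D 9. By paralog number, 12 were anterior (numbers 1 to 4), 11 central (5 to 8) and 16 posterior (9 to 13). In the deposited mm9 coordinates cluster B spanned chr11:96055675-96229567, cluster C chr15:102751562-102867283 and cluster D chr2:74506367-74603199.

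Hox genes encode homeodomain transcription factors that lie side by side in 4 mammalian clusters and give the axial tissues of the embryo their position along the head-to-tail axis. In the embryo they switch on in the order in which they lie, low paralog numbers first and furthest forward, and retinoic acid is a classical inducer of the low-numbered genes. In undifferentiated ESC the clusters are covered by Polycomb repression. HOX proteins bind DNA with PBX and MEIS cofactors.

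The data were 14 polyA RNA-seq libraries, given as FPKM (fragments scaled by transcript length and by the number of mapped fragments). ESC grown without feeders in serum and LIF, cells after 48 h with activin A at 10 ng/mL and all-trans retinoic acid at 0.01 µM, called cXENp1, and cells after passage on iMEF feeders and a return to gelatin, called cXENp3, were each sampled once in 4 lines. The lines were WT3 (wild type), KO3.34 and KO2.6 (Zfp281 knockouts, the latter written 2.26 in its cell line field) and Rescue3.34 (by its title the KO3.34 line with Zfp281 put back, so that it and KO3.34 are related and the 4 lines are not fully independent). All 4 are of 129S1/SVImJ background. XENB1 (labelled 129S1) and XEN5 are wild-type XEN lines, kept on gelatin in MEF-conditioned medium. Zfp281 is a zinc-finger transcription factor of pluripotent cells, and the series title names it as a barrier between the ESC and XEN states. Each line and stage is 1 library, so the lines stand in for replicates, and the wild-type and rescued states are 1 line each. WT3 and Rescue3.34 together are called Zfp281-present here. Library names begin with JH for 3 of the 4 ESC libraries (all but KO2.6) and with XH for the other 11 libraries. What the prefixes stand for is not given in the sources used here.

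Zfp281 itself was listed between 25.1 and 38.6 FPKM in the 6 libraries of WT3 and Rescue3.34, between 1.29 and 3.96 FPKM in those of KO3.34 and at most 0.559 FPKM in those of KO2.6. Marker levels did not follow the stage labels in every library. The 12 pluripotency markers summed to between 7615 and 10078 FPKM in ESC, to 7963 in cXENp3 of WT3, 4166 in cXENp3 of Rescue3.34, 1168 FPKM in KO3.34 and 378 FPKM in KO2.6. Of 14 XEN markers, Lama1, Col4a1, Col4a2 and Sparc are listed at 0 in both XEN lines and in both knockout cXENp3 libraries, so sums are given over the other 10, a choice made after seeing the data. They summed to 33.5 FPKM in cXENp3 of WT3 and 62.4 FPKM in Rescue3.34, against 4094 FPKM in KO3.34, 2934 FPKM in KO2.6 and 2806 to 3741 in the XEN lines. The cXENp3 library of WT3 was therefore an ESC-level library by pluripotency markers, and cXENp3 is used below as a name for the culture step. The ESC library of KO2.6 also stood apart, with all 14 XEN markers at 1 FPKM or above and a sum over the 10 of 72.9 FPKM against 12.6 to 16.3 in the other ESC libraries. FPKM tables carry no read counts, so the depth behind each value is unknown. Eef1a1, a gene every cell uses, is listed at 0 in 10 of the 14 libraries although it reaches 5694 FPKM, so a 0 in these files can be a failed estimate and is reported only as a listed value.

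Hox transcripts were scarce in ESC, abundant at cXENp1 and mostly gone again at cXENp3. In the 4 ESC libraries the 39 members summed to between 9.38 and 15.7 FPKM. At cXENp1 the sums were 674 FPKM in WT3, 734 FPKM in Rescue3.34, 762 FPKM in KO3.34 and 450 FPKM in KO2.6, and at cXENp3 they lay between 51.9 and 65.8. XENB1 summed to 64.4 FPKM and XEN5 to 32.8. The cXENp1 sums were the highest in every line, and no cXENp1 library overlapped any library of another stage. In bulk libraries, fewer cells expressing a gene and less RNA per cell cannot be told apart.

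**Figure D1:**
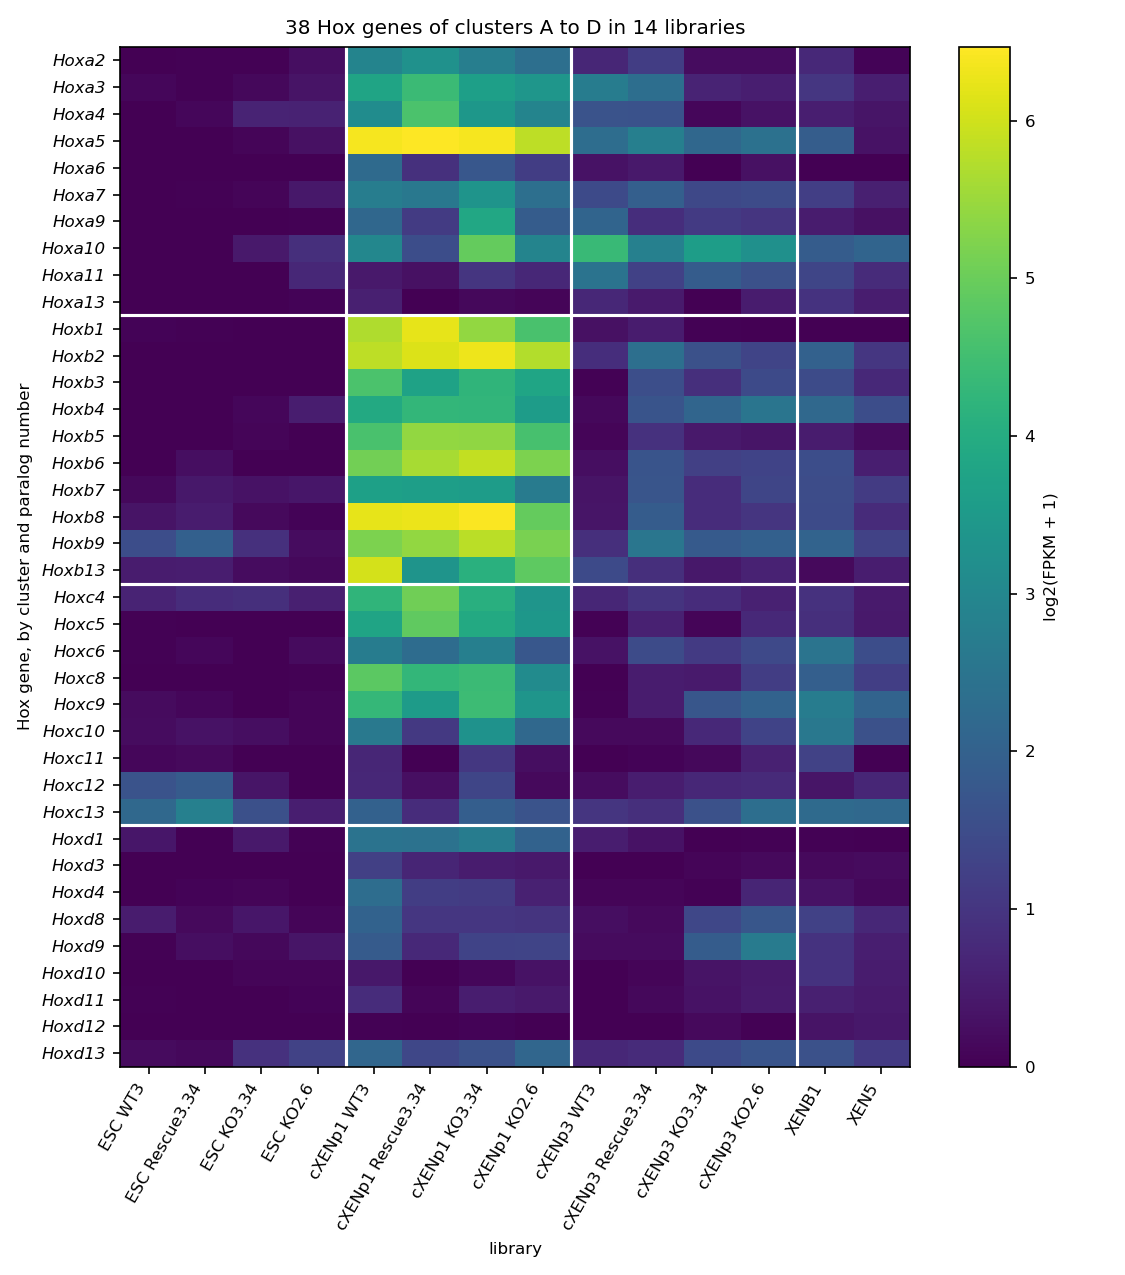
Level of 38 of the 39 Hox genes (rows, by cluster and paralog number) in the 14 libraries (columns, by stage and line), as log2(FPKM + 1) in colour. The cXENp1 columns are bright across cluster B and most of clusters A and C, but dark at Hoxa11 and Hoxa13. The numbers 10 to 12 of cluster D stay dark in every library.

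In ESC, 34 of 39 members were under 1 FPKM in all 4 libraries, and Hoxa6, Hoxb2, Hoxd3 and Hoxd12 were listed at 0 in all 4. The exceptions included Hoxb9, Hoxc12, Hoxc13 and Hoxd13. Hoxc13, a posterior gene known for its role in hair and nails, was the leading ESC member in WT3 (3.57 FPKM), Rescue3.34 (6.04) and KO3.34 (2.00), and stood at 0.446 FPKM in KO2.6. Its neighbour Hoxc12 was at 2.17, 2.64, 0.286 and a listed 0 FPKM in the same order. Posterior members made up between 44.4% and 81.4% of the summed ESC level.

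Tests were run on log2(FPKM + 1) with limma across all genes that reached 1 FPKM in at least 2 libraries of the fit, with the line as a block in the stage comparisons and Benjamini-Hochberg adjustment over all genes tested. A called gene has an adjusted p under 0.05. Of the 39 members, 33 passed this filter in the course, and 21 of those 33 would have passed without the cXENp1 libraries, so for the other members passing depended on being high there. Hoxa13, Hoxc11, Hoxd3, Hoxd10, Hoxd11 and Hoxd12 were not tested and did not exceed 1.43 FPKM in any library.

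From ESC to cXENp1, 28 of the 33 tested members rose and none fell, where 28.5% of all 13191 tested genes were called and 14.7% rose. The median difference was 3.20 over the tested members and 0.00 over all tested genes on the log2(FPKM + 1) scale. All 4 cXENp1 libraries lay above all 4 ESC libraries for 30 of 33 members, against 20.5% of all tested genes. The members without this separation were Hoxa11, Hoxc12 and Hoxc13. Both counts include members, such as Hoxb1 and Hoxb8, that passed the filter only through the cXENp1 libraries, and for these the filter itself favoured a rise. The members not called (Hoxa11, Hoxc12, Hoxc13, Hoxd8 and Hoxd9) were all among the 21 that passed without those libraries.

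Hoxa5, a central gene of cluster A with roles in lung and cervical skeleton, had the largest difference. In ESC of WT3 and Rescue3.34 it was listed at 0, and it stood at 0.0564 FPKM in KO3.34 and 0.213 FPKM in KO2.6. At cXENp1 it reached 82.8 FPKM in WT3, 87.6 FPKM in Rescue3.34, 82.5 FPKM in KO3.34 and 55.3 FPKM in KO2.6. The 4 cXENp1 libraries were far above the ESC libraries, with KO2.6 the lowest of them. The difference was 6.17 ± 0.22 (SE) on the log2(FPKM + 1) scale (limma, adjusted p = 2.52e-06). Hoxa3, Hoxa4, Hoxa5 and Hoxa6 share a single interval in the deposited table, so the split of fragments among them is uncertain.

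Hoxb2, an anterior gene that acts in the hindbrain, was listed at 0 in all 4 ESC libraries, and no fold is given. At cXENp1 it stood at 56.1 FPKM in WT3, 68.8 FPKM in Rescue3.34, 78.0 FPKM in KO3.34 and 51.8 FPKM in KO2.6 (difference 6.0 ± 0.26, limma adjusted p = 6.37e-06).

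Hoxb1, the most anterior gene of cluster B and a textbook retinoic acid target that specifies a hindbrain segment, was at 0.0476 FPKM in WT3 ESC and 0.0252 FPKM in Rescue3.34 ESC and was listed at 0 in both knockout ESC libraries. At cXENp1 its levels were 51.0 FPKM in WT3, 74.2 FPKM in Rescue3.34, 41.6 FPKM in KO3.34 and 23.3 FPKM in KO2.6. Every cXENp1 library was above every ESC library, and the knockout lines were the lower pair. The difference was 5.46 ± 0.26 (limma, adjusted p = 6.37e-06).

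Hoxb8, a central gene known from trunk patterning and from blood progenitors, was between 0.0537 and 0.405 FPKM in ESC. Its cXENp1 levels were 73.6 FPKM in WT3, 76.2 FPKM in Rescue3.34, 85.6 FPKM in KO3.34 and 29.9 FPKM in KO2.6, the last well below the others and all above ESC. The difference was 5.70 ± 0.33 (limma, adjusted p = 2.58e-05).

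Promoters are shown for Hoxa5, Hoxb8 and Hoxb1, 3 of the 4 members with the largest early difference, and for Hoxa10, the leading member at cXENp3, because retinoic acid receptors, HOX-PBX pairs and CDX factors are known inputs to Hox promoters. Each runs from 250 bases before to 50 bases after the start in RefSeq GRCm38.p6, 5′ to 3′ on the gene's strand, with matches to the searched motifs in capitals. Hoxb1 lies at chr11:96365508-96365807 on the plus strand, Hoxb8 at chr11:96281655-96281954 on the plus strand, Hoxa5 at chr6:52204538-52204837 on the minus strand and the first of the Hoxa10 promoters at chr6:52240805-52241104 on the minus strand.
Hoxb1: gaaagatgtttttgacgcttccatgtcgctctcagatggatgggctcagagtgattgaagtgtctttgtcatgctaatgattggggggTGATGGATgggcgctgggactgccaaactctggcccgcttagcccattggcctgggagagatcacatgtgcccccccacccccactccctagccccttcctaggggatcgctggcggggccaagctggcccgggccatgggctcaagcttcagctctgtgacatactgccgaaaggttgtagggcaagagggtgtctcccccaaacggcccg
Hoxb8: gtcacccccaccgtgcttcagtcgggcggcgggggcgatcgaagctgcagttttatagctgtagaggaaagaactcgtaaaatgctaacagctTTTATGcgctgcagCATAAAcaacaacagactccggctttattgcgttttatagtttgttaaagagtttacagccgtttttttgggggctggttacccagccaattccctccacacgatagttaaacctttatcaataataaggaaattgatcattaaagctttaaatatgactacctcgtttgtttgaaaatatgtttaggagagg
Hoxa5: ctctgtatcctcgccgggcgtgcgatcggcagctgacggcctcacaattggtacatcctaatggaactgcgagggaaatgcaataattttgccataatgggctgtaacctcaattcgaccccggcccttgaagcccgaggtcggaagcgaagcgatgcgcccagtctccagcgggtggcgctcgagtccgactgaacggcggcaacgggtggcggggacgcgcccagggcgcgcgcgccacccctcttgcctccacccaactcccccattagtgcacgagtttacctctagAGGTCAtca
Hoxa10: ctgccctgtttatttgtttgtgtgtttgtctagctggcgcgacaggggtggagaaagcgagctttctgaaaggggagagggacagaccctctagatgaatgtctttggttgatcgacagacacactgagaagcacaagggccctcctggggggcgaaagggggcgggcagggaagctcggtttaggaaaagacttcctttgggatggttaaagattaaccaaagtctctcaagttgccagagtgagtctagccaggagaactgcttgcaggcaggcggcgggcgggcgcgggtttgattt

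The Hoxb1 window held 1 match to the HOX-PBX motif TGATNGAT, beginning 162 bases before the start. The Hoxb8 window held 2 matches to the CDX motif TTTATG, on opposite strands, at 157 and 143 bases before the start. The Hoxa5 window held 1 retinoic acid receptor half-site, AGGTCA, 42 bases after the start, and the Hoxa10 windows held no match. Promoters were found for 22 of 39 members. On both strands, AGGTCA was present in those of 7 members and in 16.3% of all 32851 promoters of this length. TGATNGAT was present for 3 members (Hoxa2, Hoxb1, Hoxd11) and in 2.1% of all promoters, and TTTATG for 5 members and in 11.9% of all. Direct repeats of AGGTCA with 2 or 5 free bases between them, which contain the half-site, had no match in the 22 members' windows. Each repeat was present in 3 of all 32851 promoters (0.009%), so the lack of a match is not particular to Hox genes. CpG dinucleotides had a median of 14.5 per Hox promoter and 7 per promoter overall. A match is a description of letters in the window and not a bound site.

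Cluster B responded as a block at cXENp1, while clusters C and D responded in part. All 10 members of cluster B rose, with differences between 3.08 and 6.0, and cluster B supplied between 54.8% and 57.6% of the summed Hox FPKM in every cXENp1 library. Hoxb5 rose by 4.97, Hoxb6 by 5.39, Hoxb3 by 4.09, Hoxb4 by 3.85, Hoxb7 by 3.08 and Hoxb9 by 4.24 on the log2(FPKM + 1) scale. Hoxb13, the most posterior gene of the cluster, separated from the rest by a long gap and best known from prostate and tail, rose by 4.25 ± 0.39 (limma, adjusted p = 0.000253). Its cXENp1 levels were 65.2 FPKM in WT3, 9.26 FPKM in Rescue3.34, 16.3 FPKM in KO3.34 and 28.3 FPKM in KO2.6. They spread more widely among the lines than those of Hoxb1 or Hoxb2, and all were above the ESC levels of at most 0.442 FPKM.

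In cluster A, 9 of 10 tested members rose at cXENp1. Hoxa2 rose by 2.75, Hoxa3 by 3.65, Hoxa4 by 3.20, Hoxa6 by 1.51, Hoxa7 by 2.62, Hoxa9 by 2.25 and Hoxa10 by 2.76. Hoxa11, a limb and uterus gene, did not pass the test (0.43 ± 0.28) and was between 0.219 and 0.994 FPKM at cXENp1. In cluster C, 6 of 8 tested members rose, with Hoxc8 at 4.15, Hoxc5 at 4.0, Hoxc9 at 3.83, Hoxc4 at 3.46, Hoxc6 at 2.30 and Hoxc10 at 2.08. Hoxc12 and Hoxc13 did not pass, with differences of -0.34 and -0.18. In cluster D, 3 of 5 tested members rose, Hoxd1 by 2.19, Hoxd4 by 1.27 and Hoxd13 by 1.18. Hoxd3 and Hoxd4 share a single interval in the deposited table, so the split of fragments between them is uncertain. Cluster D made up between 1.31% and 2.98% of the summed Hox level at cXENp1, and Hoxd1, its most anterior gene, reached 5.54 FPKM at most.

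By paralog group, 11 of 11 tested anterior members rose at cXENp1, 10 of 11 central members and 7 of 11 posterior members. The anterior group made up between 36.1% and 46.5% of the summed level and the posterior group 9.51% in Rescue3.34 and 20.3% to 21.9% in the other lines. The low posterior share of Rescue3.34 is visible gene by gene: Hoxa9 stood at 1.18 FPKM there against 2.71 to 13.8 in the other lines, Hoxa10 at 1.86 against 6.51 to 29.5, and Hoxc10 at 1.12 against 3.58 to 8.86. KO3.34 was the highest line for each of these 3 genes.

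With the library-name prefix as a further term, 19 of the 28 calls remained. The 9 that were lost were Hoxa3, Hoxa4, Hoxa6, Hoxa9, Hoxa10, Hoxc6, Hoxc10, Hoxd4 and Hoxd13. With this term the ESC level rests on the KO2.6 library alone, the only ESC library without the prefix JH. In KO2.6, whose 3 libraries all carry the prefix XH, each of the 28 members was higher at cXENp1 than in ESC. These libraries were part of the fit that chose the 28, so their direction is not a separate check of the prefix.

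**Figure D2:**
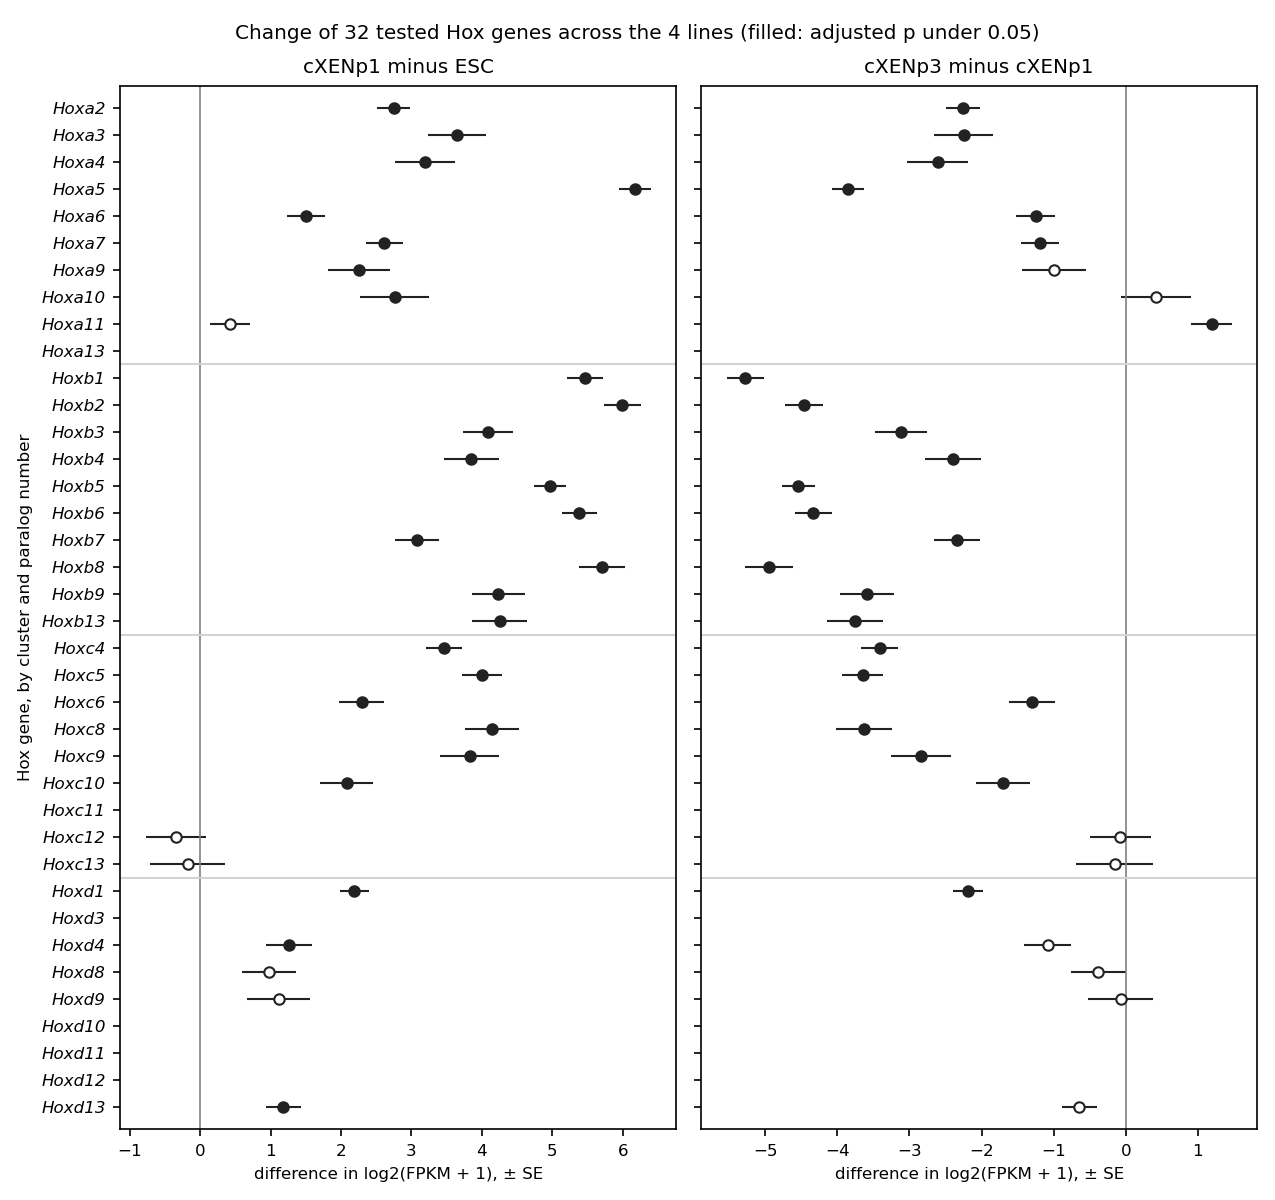
Difference of 32 of the 33 tested Hox genes between cXENp1 and ESC (left) and between cXENp3 and cXENp1 (right) on the log2(FPKM + 1) scale, with standard errors from the fit over 4 lines, and filled points for an adjusted p under 0.05. Cluster B genes lie between 3.08 and 6.0 at left and all below 0 at right, whereas Hoxa11 is the only filled point above 0 at right.

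Cofactor genes moved with the clusters. Of 9 PBX, MEIS and PKNOX genes, which encode the DNA-binding partners of HOX proteins, 7 rose at cXENp1 and none fell, with a list median of 1.67. Of all tested genes, 14.7% rose and 13.8% fell. Meis2 rose by 5.53, from at most 1.51 FPKM in ESC to 75.8 in WT3, 59.3 FPKM in Rescue3.34, 71.9 FPKM in KO3.34 and 37.3 FPKM in KO2.6. Meis1 rose by 4.17 and Pknox2 by 2.30. At cXENp3, 5 of the 9 had fallen again from cXENp1, among them Meis2 by 3.08 and Meis1 by 2.56, where 4.98% of all tested genes fell.

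Of 17 tested genes for retinoic acid receptors, carriers and enzymes, 13 rose at cXENp1 and 1 fell, with a list median of 1.56, and 8 fell again at cXENp3. Among all tested genes 14.7% rose and 13.8% fell at cXENp1, and 4.98% fell from cXENp1 to cXENp3. Cyp26a1, which degrades retinoic acid, rose by 8.81, Crabp2, a retinoic acid carrier, by 5.78 and Rarb, a receptor gene and known target, by 4.76. Crabp1 fell by 1.62. Among 6 Cdx and ParaHox genes, which include known regulators of central Hox genes, 2 were tested and Cdx2 rose, to at most 2.58 FPKM.

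Of 16 tested Polycomb and Trithorax genes, Bmi1 and Cbx2 rose and Suz12, Cbx7 and Phf19 fell, with a list median of -0.41. The share of all tested genes called in this comparison, for this list and the flanking genes below, was 28.5% (14.7% higher, 13.8% lower). The 15 genes that flank the clusters moved less than the clusters: Skap1, beside cluster B, rose by 1.43 to at most 2.78 FPKM, Calcoco1 rose by 0.76 and Hibadh fell by 1.07, with a median of 0.17 over the flanks. Evx1 and Evx2, at the posterior ends of clusters A and D, reached too low a level to be tested.

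Among noncoding rows, Mira, named for a transcript of cluster A, rose by 3.74 to between 10.7 and 21.8 FPKM. Hotair, the noncoding RNA of cluster C, did not exceed 0.218 FPKM. The 6 miRNA rows of the clusters (Mir10a, Mir10b, Mir196a-1, Mir196a-2, Mir196b and Mir615) were listed at 0 in all 14 libraries, which were made from polyA RNA.

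Markers of other cell types were read beside these changes. Over 11 neural progenitor markers the summed level was 79.8 to 101 FPKM in ESC and 39.8 to 97.6 at cXENp1, and over 11 mesendoderm and mesoderm markers 5.59 to 7.41 and 7.71 to 29.1. Over 15 fibroblast markers it was 7.75 to 20.2 in ESC and 47.4 to 112 at cXENp1. The neural sum joins genes that moved in opposite directions. Tubb3 stood at 35.0 to 84.2 FPKM in ESC and 12.1 to 61.6 at cXENp1, lower in each line. Pax6 was at most 0.324 FPKM in ESC and 4.03 to 16.4 at cXENp1. Nes was at most 3.20 FPKM in ESC and 9.89 to 26.9 at cXENp1. Of 7 tested neural markers, 2 were called higher and 1 lower, where 14.7% of all tested genes rose and 13.8% fell. The 10 XEN markers summed to 666 FPKM at cXENp1 of KO2.6 and to 93.9 to 114 in the other lines, and KO2.6 was the lowest cXENp1 library for 22 of the 39 Hox genes. The part of these markers in the Hox levels was not tested.

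From cXENp1 to cXENp3, 24 of the 33 tested members fell and 1 rose, where 7.45% of all tested genes were called, 4.98% fell and 2.47% rose. The median difference was -2.34 over the tested members and 0.04 over all genes. All 4 cXENp3 libraries lay below all 4 cXENp1 libraries for 23 of 33 members, against 7.99% of all tested genes. These comparisons share the cXENp1 libraries with those above, so a gene raised in those libraries enters both with opposite sign. Members that passed the filter only through the cXENp1 libraries, such as Hoxb1 and Hoxb8, are counted here too. By paralog group, 10 of 11 anterior, 10 of 11 central and 4 of 11 posterior members fell. Without KO3.34, 15 of the 25 calls remained, and the 10 lost were Hoxa3, Hoxa4, Hoxa6, Hoxa7, Hoxa11, Hoxb4, Hoxb7, Hoxc6, Hoxc9 and Hoxc10.

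Hoxb1 fell furthest. It stood at 0.233 FPKM in WT3, 0.404 FPKM in Rescue3.34 and 0.0324 FPKM in KO3.34 and was listed at 0 FPKM in KO2.6, so all 4 lines were back under 1 FPKM (difference -5.28 ± 0.26, limma adjusted p = 2.55e-05). Neither XEN line had a value above 0 for it. Among the 14 libraries Hoxb1 thus exceeded 1 FPKM at cXENp1 alone.

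Hoxb8 was at 0.293 FPKM in WT3, 2.69 FPKM in Rescue3.34, 0.765 FPKM in KO3.34 and 0.995 FPKM in KO2.6 at cXENp3 (difference -4.95 ± 0.33, limma adjusted p = 0.000102). The XEN lines had 1.80 (XENB1) and 0.726 FPKM (XEN5). Of these 6 libraries, all but WT3 were above the ESC maximum of 0.405 FPKM.

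Hoxb5, a central gene with roles in gut innervation and shoulder position, had cXENp1 levels of 23.2, 41.5, 40.8 and 23.1 FPKM and cXENp3 levels of 0.0674, 0.901, 0.353 and 0.287 FPKM in WT3, Rescue3.34, KO3.34 and KO2.6 (difference -4.54 ± 0.23, limma adjusted p = 2.55e-05). For Hoxb2 the cXENp3 levels were 0.788, 4.12, 2.05 and 1.5 FPKM in the same order, above the listed 0 of ESC and far below cXENp1 (difference -4.46 ± 0.26, limma adjusted p = 4.61e-05).

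**Figure D3:**
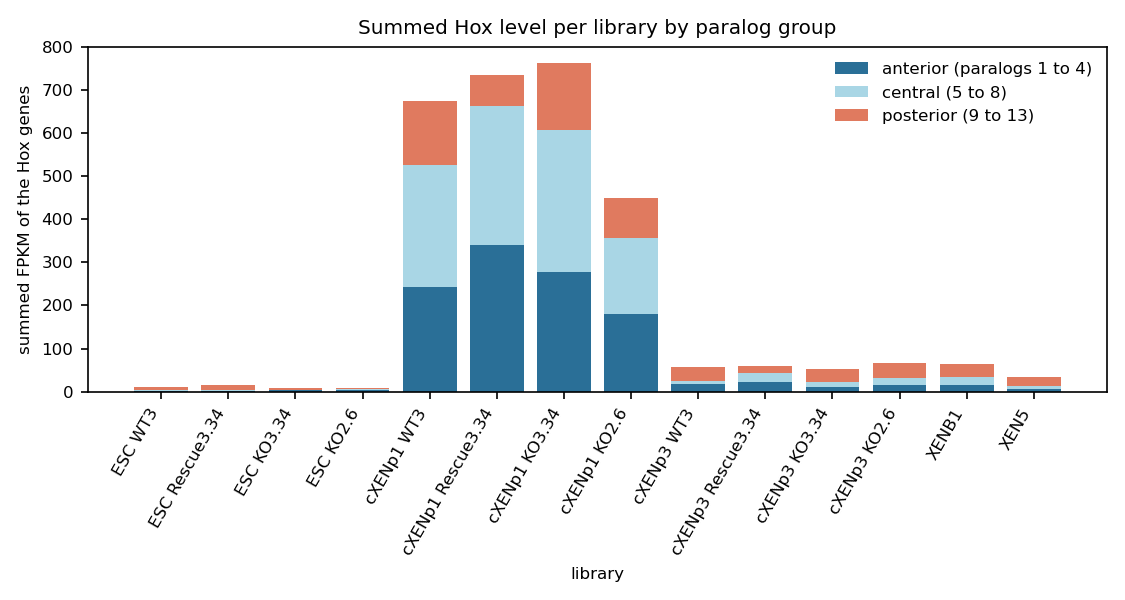
Summed FPKM of the anterior (paralogs 1 to 4), central (5 to 8) and posterior (9 to 13) Hox genes in each of the 14 libraries, as stacked bars from 0. The cXENp1 bars reach 450 to 762 FPKM and the cXENp3 bars 51.9 to 65.8.

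To describe how much remained at cXENp3, that level was taken as a percent of the cXENp1 level within each line, for members at 1 FPKM or above at cXENp1. At most 25% was called transient, at least 50% lasting, and a member at 1 FPKM or above at cXENp3 and at 2 or more times its cXENp1 level late. Transient members numbered 26 of 32 for WT3, 23 of 28 for Rescue3.34, 27 of 33 for KO3.34 and 18 of 29 for KO2.6. The rule was applied to Hox members only, so no share of all genes stands beside these counts. Choosing members by their cXENp1 level itself favours a lower level at cXENp3. Members not called higher at cXENp1, such as Hoxc13, are included. The median percent kept was 3.08%, 8.82%, 4.84% and 10.8% in that order.

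Transient in all 4 lines were 15 members, among them Hoxa2, Hoxa5, Hoxb1, Hoxb2, Hoxb3, Hoxb5, Hoxb6, Hoxb8, Hoxb9, Hoxb13, Hoxc4, Hoxc5, Hoxc8 and Hoxd1. They included 8 of the 10 members of cluster B, and by group 7 were anterior, 6 central and 2 posterior. No anterior member was lasting or late in any line. Hoxb1 kept at most 0.544% of its cXENp1 level, Hoxb8 between 0.398% and 3.53%, Hoxb5 between 0.290% and 2.17% and Hoxa5 between 4.18% and 7.88%. Near the limit of 25%, Hoxb7 kept 20.0% in Rescue3.34 and 28.6% in KO2.6, and Hoxa4 kept 27.4% in WT3.

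The lasting and late members were mostly posterior. Hoxa11 was late in all 4 lines and was the member that rose from cXENp1. It was listed at 0 in 3 ESC libraries and at 0.661 FPKM in KO2.6, and went from 0.353, 0.219, 0.994 and 0.648 FPKM at cXENp1 to 4.49, 1.39, 2.70 and 2.04 at cXENp3. All 4 cXENp3 libraries were above all cXENp1 libraries, with WT3 the highest. The difference was 1.19 ± 0.28 (limma, adjusted p = 0.0341), and it did not pass without WT3, KO3.34 or Rescue3.34 or with a pseudocount of 0.1. Hoxa11 overlaps the antisense row Hoxa11as, which also rose (0.91). Whether counting used strand is not given in the sources used here, so reads of the pair cannot be told apart.

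Hoxa10, the neighbour of Hoxa11 with roles in limb, uterus and blood, was the leading Hox gene in all 4 cXENp3 libraries. In ESC it had a listed 0 in WT3 and Rescue3.34 and stood at 0.352 FPKM in KO3.34 and 0.828 FPKM in KO2.6. At cXENp1 it was at 6.97 FPKM in WT3, 1.86 FPKM in Rescue3.34, 29.5 FPKM in KO3.34 and 6.51 FPKM in KO2.6, and at cXENp3 at 19.8, 6.0, 11.2 and 8.53. It was thus higher at cXENp3 than at cXENp1 in WT3, Rescue3.34 and KO2.6 (284%, 322% and 131% kept) and lower in KO3.34 (37.8%). The 2 stages overlapped and the difference did not pass the test (0.42 ± 0.49). Hoxa9, the next gene, kept 93.9% in WT3 and 68.2% in Rescue3.34 but 8.40% in KO3.34 and 37.3% in KO2.6.

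**Figure D4:**
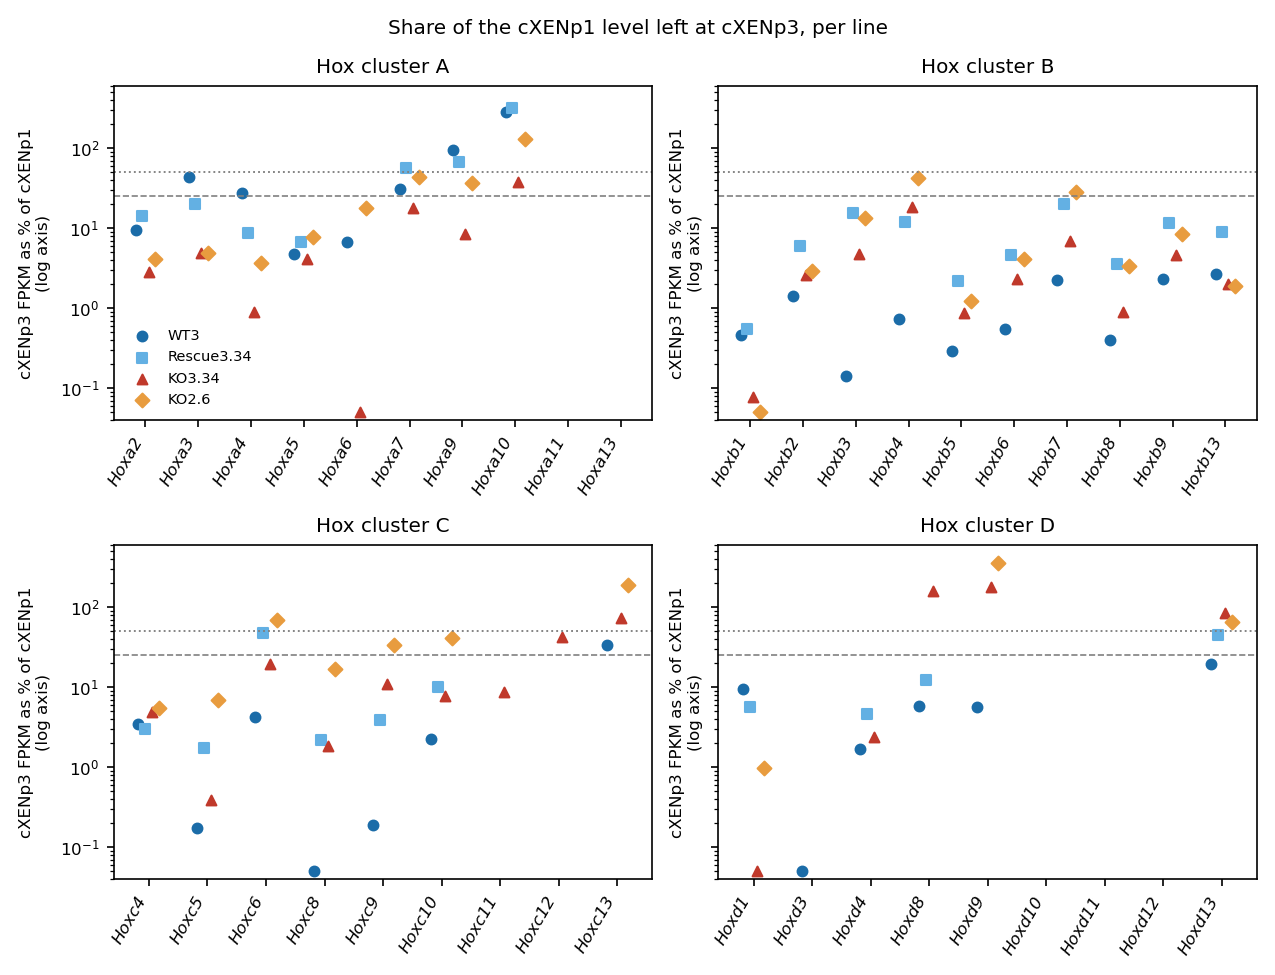
Level at cXENp3 as a percent of the level at cXENp1 (log axis) for 38 Hox genes and each line, shown where the cXENp1 level was 1 FPKM or above, with lines at 25% (dashed) and 50% (dotted), and values under 0.05% drawn at 0.05%. In cluster A the percent kept is highest at Hoxa10 in each of the 4 lines, and in cluster D the KO3.34 and KO2.6 points for Hoxd9 lie above 100%.

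The balance of clusters changed with this. Cluster A made up 85.6%, 50.7%, 47.5% and 37.3% of the summed Hox level at cXENp3 (WT3, Rescue3.34, KO3.34, KO2.6), against 25.8% to 31.1% at cXENp1. Cluster B made up 7.97%, 37.6%, 23.8% and 23.9% in the same order. Hoxa9, Hoxa10, Hoxa11 and Hoxa13 together made up 49.5% in WT3 and between 14.4% and 28.9% in the other lines. The paralog number averaged over members with FPKM as weight was between 4.60 and 5.87 at cXENp1 and between 5.96 and 7.66 at cXENp3. It was higher at cXENp3 than at cXENp1 in every line. In ESC, where Hox sums were low, it was already between 6.86 and 10.4, and in the XEN lines between 7.44 and 8.24. The posterior share at cXENp3 was 28.7% in Rescue3.34 and 51.4% to 57.8% in the other lines, against 44.4% to 81.4% in ESC.

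Compared with ESC, 8 of 33 tested members were higher at cXENp3 and none lower, where 9.35% of all tested genes were called and 5.34% were higher. Among them were Hoxa10 (3.18 ± 0.49, limma adjusted p = 0.0134), Hoxa5 (2.32 ± 0.22, 0.00424), Hoxa11 (1.62 ± 0.28, 0.0189), Hoxb2 (1.53 ± 0.26, 0.0182), Hoxb4 (1.45), Hoxa7 (1.43) and Hoxb6 (1.05). Hoxa5 stood at 3.94, 5.87, 3.45 and 4.36 FPKM at cXENp3 in WT3, Rescue3.34, KO3.34 and KO2.6, all above the ESC maximum of 0.213. All 4 cXENp3 libraries lay above all ESC libraries for 12 of 33 members, against 7.66% of all tested genes. None of the 8 calls remained with the prefix term, without KO3.34 or without Rescue3.34, and without WT3 11 members were called. In KO2.6 alone, each of the 8 members was higher at cXENp3 than in ESC, but its libraries were part of the fit that chose the 8, so this is not a separate check.

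The cXENp3 step follows contact with iMEF feeders, and fibroblasts carry their own Hox code, so fibroblast markers are given beside these levels. The 15 markers summed to 50.2 FPKM in cXENp3 of WT3, 1319 FPKM in Rescue3.34, 414 FPKM in KO3.34 and 559 FPKM in KO2.6, and to 922 in XENB1 and 674 in XEN5, which were grown without feeders. In WT3, 7 of 15 markers were at 1 FPKM or above, Col1a1 was at 17.5 FPKM, Prrx1 at 0.530 and Lum was listed at 0. In Rescue3.34, 14 of 15 were at 1 FPKM or above, and Col1a1 was at 509 FPKM, Prrx1 at 20.2 and Lum at 8.32. The library with the lowest fibroblast sum at cXENp3, WT3, had the highest Hoxa9, Hoxa10, Hoxa11 and Hoxa3, and the library with the highest, Rescue3.34, had the lowest Hoxa9, Hoxa10 and Hoxa11 and the highest Hoxb2, Hoxb8 and Hoxb9. The part of fibroblast RNA in these levels was not tested.

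The XEN lines held Hox RNA at a low level, with cluster C as the largest share. In them 12 of 39 members were at 1 FPKM or above in both lines, and 32 of 39 were higher in XENB1 than in XEN5. Cluster C made up 39% of the summed Hox level in XENB1 and 40.7% in XEN5. Against ESC, only 13 members passed the filter, which here needed 1 FPKM in 2 of 6 libraries, so that a member at that level in both XEN lines passed through them alone. Of these 8 were higher and none lower, where 41.9% of all 12372 tested genes were called, 22.2% higher and 19.7% lower.

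Hoxc9, a trunk-level posterior gene, was at most 0.134 FPKM in ESC and stood at 5.53 FPKM in XENB1 and 3.19 in XEN5 (difference 2.29 ± 0.25, limma adjusted p = 0.000338). Hoxc6, a thoracic-level gene, was at most 0.139 FPKM in ESC and at 4.57 and 1.90 in the XEN lines (1.92 ± 0.29, 0.00153). Hoxc10 was at most 0.242 FPKM in ESC and at 5.02 and 2.02 in the XEN lines (1.87 ± 0.30, 0.00203). Hoxb4 was at most 0.421 FPKM in ESC and at 3.56 and 1.88 in the XEN lines (1.70 ± 0.28, 0.00217). The XEN values were above all ESC values for each of these 4 genes, and XENB1 was the higher line each time. Hoxa10 (1.66), Hoxc8 (1.56), Hoxb2 (1.52) and Hoxb7 (0.99) were the other calls. In each run without a XEN line, the filter removed all 8 called members, so these calls could not be checked by leaving out a XEN line. The ESC libraries here include the KO2.6 library with XEN markers, and 3 of 4 carry the prefix JH while both XEN libraries carry XH, so prefix and group cannot be told apart outside KO2.6.

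Between the Zfp281 knockouts and the Zfp281-present lines, no Hox gene was called in ESC or at cXENp1. In ESC 1.97% of all tested genes were called by limma, 1.05% higher and 0.917% lower. An unadjusted p under 0.05 was found for 4 of 33 members and for 2762 of all 13191 tested genes. At cXENp1 0.485% of all tested genes were called, 0.364% higher and 0.121% lower. Here 4 of 33 members had an unadjusted p under 0.05, as did 1486 of all 13191 tested genes. The largest member differences were -1.58 ± 0.36 for Hoxc12 in ESC (adjusted p = 0.054) and 1.67 ± 0.70 for Hoxa10 at cXENp1 (adjusted p = 0.41). An adjusted p above 0.05 does not show that the genotypes were alike. With a pseudocount of 0.1, 1 member was called in ESC.

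At cXENp3, 8 of 33 tested members were called, 5 higher and 3 lower in the knockouts. This was 24.2% of the tested members, where 41.9% of all tested genes were called, 22.9% higher and 19.0% lower. Both knockout libraries lay above both, or below both, Zfp281-present libraries for 15 of the 33 members, where 72.9% of all tested genes did. The lines also differed at this step in their pluripotency, XEN and fibroblast markers, as given above, and the part of these in the Hox differences was not tested.

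The members higher in the knockouts were of clusters B, C and D. Hoxd9, a posterior gene with roles in limb and lumbar patterning, was at 0.147 FPKM in WT3, 0.149 FPKM in Rescue3.34, 2.67 FPKM in KO3.34 and 5.47 FPKM in KO2.6 (difference 2.09 ± 0.37, limma adjusted p = 0.00214). Its neighbour Hoxd8 was at 0.180, 0.130, 1.62 and 2.32 FPKM in the same order (1.35 ± 0.32, 0.00813). Both were low in both Zfp281-present lines.

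Hoxc9 was at 0.0356 FPKM in WT3, 0.419 FPKM in Rescue3.34, 2.29 FPKM in KO3.34 and 3.13 FPKM in KO2.6 (1.61 ± 0.38, limma adjusted p = 0.00849). Hoxb4, an anterior gene known in blood stem cells, was at 0.103, 2.19, 3.35 and 4.68 FPKM in that order (1.41 ± 0.45, 0.0304). Its difference rested largely on the low WT3 value, and without WT3 it was 0.64 with an adjusted p of 0.37. Hoxd13, a digit gene, was at 0.659, 0.724, 1.74 and 2.23 FPKM (0.82 ± 0.30, 0.0497).

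The 3 members lower in the knockouts were the anterior neighbours Hoxa2, Hoxa3 and Hoxa4, genes of the hindbrain and neck. Hoxa3 and Hoxa4 share a single interval with Hoxa5 and Hoxa6 in the deposited table, so the split of fragments among them is uncertain. Hoxa5 (-0.25) and Hoxa6 (-0.23) were not called. Hoxa3 was at 5.60 FPKM in WT3, 4.03 FPKM in Rescue3.34, 0.558 FPKM in KO3.34 and 0.468 FPKM in KO2.6 (-1.93 ± 0.27, limma adjusted p = 0.000755). Hoxa4 was at 2.16, 2.1, 0.0873 and 0.245 FPKM (-1.43 ± 0.41, 0.0192). Hoxa2 was at 0.618, 1.24, 0.165 and 0.168 FPKM (-0.71 ± 0.25, 0.0475). For Hoxa3 the XEN lines, at 1.02 and 0.452 FPKM, were nearer the knockouts. The call of Hoxa3 remained with each line left out, as did that of Hoxd9, whereas Hoxa2 and Hoxd13 did not pass with any 1 of the 4 lines left out, nor Hoxd13 with quantile normalization. Hoxa4 did not pass without WT3, KO3.34 or KO2.6, Hoxb4 without WT3, KO3.34 or KO2.6, Hoxc9 without WT3 and Hoxd8 without KO2.6.

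**Figure D5:**
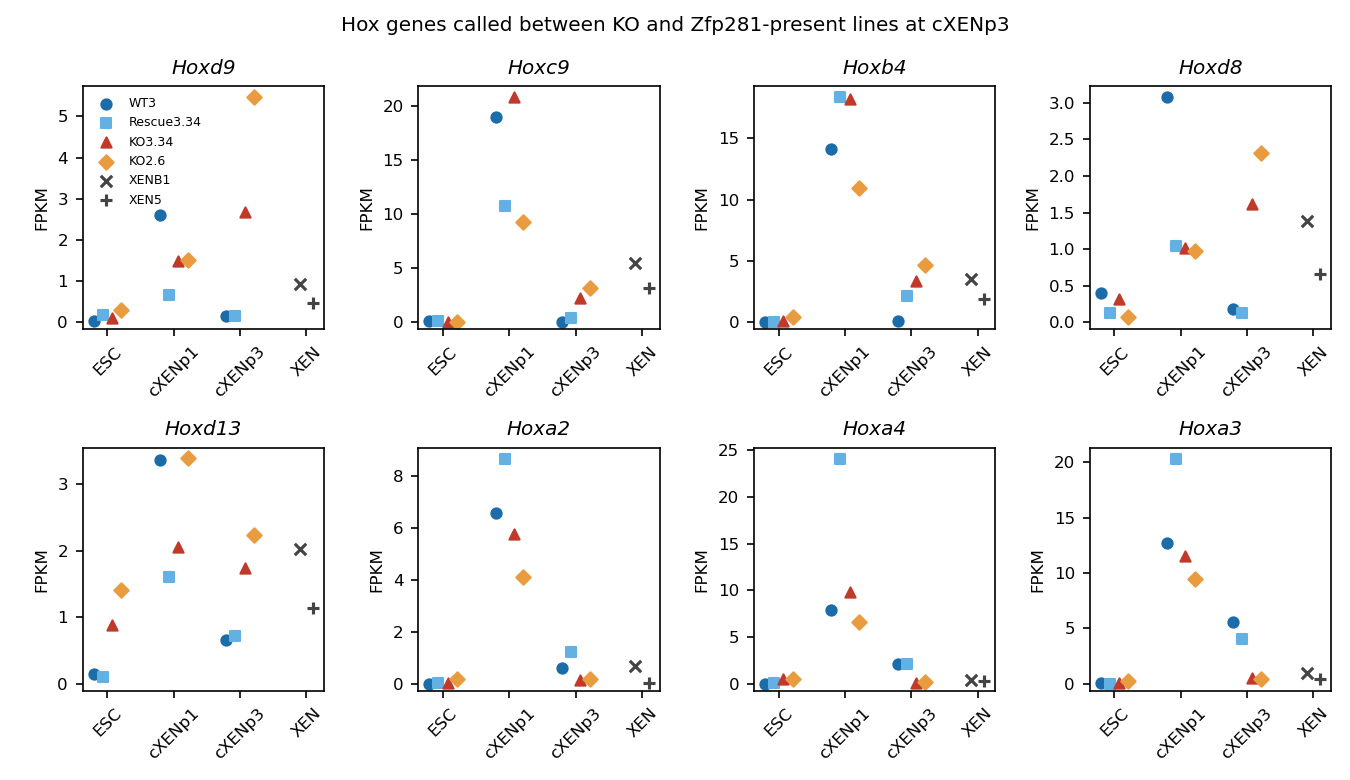
FPKM of the 8 Hox genes called between knockout and Zfp281-present lines at cXENp3, at each stage and in the XEN lines, with 1 point per library (WT3 circles, Rescue3.34 squares, KO3.34 triangles, KO2.6 diamonds, XENB1 crosses, XEN5 plus signs). At cXENp3 both knockouts are above both other lines for Hoxd9, Hoxc9, Hoxb4, Hoxd8 and Hoxd13 and below them for Hoxa2, Hoxa4 and Hoxa3.

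Whether the fall from cXENp1 to cXENp3 differed between genotypes was tested as an interaction. Of 33 tested members 3 were called, Hoxd9 and Hoxd8 with a more positive change in the knockouts (2.06 ± 0.52 and 1.88 ± 0.45, limma adjusted p = 0.0339 and 0.0287) and Hoxa3 with a more negative one (-1.35 ± 0.38, adjusted p = 0.0490). This was 9.09% of the members, where 11.4% of all tested genes were called, 7.19% higher and 4.26% lower. Hoxd9 went from 2.61 to 0.147 FPKM in WT3 and from 0.672 to 0.149 FPKM in Rescue3.34, but from 1.48 to 2.67 FPKM in KO3.34 and from 1.52 to 5.47 FPKM in KO2.6. None of the 3 calls remained without WT3, KO2.6 or Rescue3.34. Hoxd8 and Hoxa3 were also lost without KO3.34, and Hoxa3 with quantile normalization, with any value above 0 tested and with a mean of at least 5 FPKM. For the rise from ESC to cXENp1, no member was called by limma, where 0.0379% of all tested genes were called. An unadjusted p under 0.05 was found for 2 of 33 members and for 1555 of all 13191 tested genes.

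Knockout cXENp3 cells were also set against the XEN lines. Of 34 tested members, Hoxd9 was called, higher in the knockouts (2.67 and 5.47 FPKM against 0.942 and 0.469, difference 1.53 ± 0.36, limma adjusted p = 0.040), where 4.12% of all 13386 tested genes were called. The call was lost with a pseudocount of 0.1, with any value above 0 tested (where Hoxd12 was called lower instead), with quantile normalization and without KO2.6, XENB1 or XEN5. Other members differed by less, or more variably. Hoxa10 was at 11.2 and 8.53 FPKM in the knockouts against 2.69 and 3.27 in the XEN lines without passing the test (1.44 ± 0.67, adjusted p = 0.25), and Hoxc10 was at 0.684 and 1.47 against 5.02 and 2.02 (-1.06 ± 0.51, adjusted p = 0.27).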

How the data were processed

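PolyA RNA-seq of 14 mouse libraries (4 lines at ESC, cXENp1 and cXENp3, and 2 XEN lines) was analysed from the deposited FPKM values. Per the submitters' processing notes, STAR 2.5.3, Cufflinks 2.1.1 and the build mm9 were used. The annotation, the strand setting and the depth are not given in the sources used here. Interval starts in the file count from 0 (with them, 7509 of 21029 genes match a RefSeq length, against 474 otherwise) and are given from 1. The members and lists were chosen with earlier results of these data known. FPKM were taken to log2 with a pseudocount of 1 and tested in limma 3.58.1 (R 4.3.3) with a mean-variance trend. Stage comparisons used 12 libraries with the line as a block, since a line's libraries come from the same cells (correlations of deviations 0.034 to 0.397). Genotype comparisons used 6 groups of 2, comparisons of knockout cXENp3 with XEN 7 groups, and XEN against ESC 6 libraries. Nothing says that cultures were separate. In the stage comparisons, p-values measure how far the stage change varied between lines. In the other comparisons they measure the spread of libraries within groups. The genotype fits have no line term, so the same 4 lines enter at each stage as if independent. Tables and figures were made in Python 3.11.15 with pandas 2.3.3. The fits were tested on simulated data. Values are given for Hoxb1, Hoxb8 and up to 4 called members per direction with the largest difference, and other members by difference or range. Promoters are RefSeq GRCm38.p6, and no coordinate was moved between builds. Alternatives were another pseudocount, filters, quantile normalization, no trend, the block, the prefix and leaving out each line. Some genes are counted in totals but are not reported here by name.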

Additional observations from a re-analysis of the deposited data

Results flagged for a closer look

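In 62 sets of 4 lines at 1 stage, 5 had a library far from the others by Dixon's criterion, and chance gives about 1 in 20. At cXENp1, KO2.6 was far below the other lines for Hoxa5 (55.3 FPKM), Hoxb7 (5.46 FPKM) and Hoxb8 (29.9 FPKM), and WT3 far above them for Hoxd8 (3.08 FPKM, the others 0.979 to 1.05). At cXENp3, Rescue3.34 was above the other lines for Hoxa7 (2.86 FPKM against 1.64 to 1.79). The KO2.6 library at cXENp1 was also the one with 10 XEN markers at 666 FPKM in sum, and its part in the low Hox values was not tested.

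The change from cXENp1 to cXENp3 differed between genotypes by the interaction test for Hoxd9 (2.06, adjusted p = 0.0339), Hoxd8 (1.88, adjusted p = 0.0287) and Hoxa3 (-1.35, adjusted p = 0.0490) in limma. The WT3 value of Hoxd8 at cXENp1 is the outlying one above, and without WT3 the interaction of Hoxd8 was 1.42 with an adjusted p of 0.35. None of the 3 calls remained without KO2.6 or Rescue3.34 either.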

How the results depend on the processing

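No called difference of a member reversed under any alternative run, while values that were not called did change sign, such as Hoxc13 for cXENp1 against ESC (-0.18, 0.43 without Rescue3.34 and 1.54 with the prefix term). With a mean of at least 5 FPKM fewer genes were tested, and members called were 17 (cXENp1 against ESC), 16 (cXENp3 against cXENp1), 4 (cXENp3 against ESC), 3 (knockout against Zfp281-present at cXENp3), 0 (interaction from cXENp1 to cXENp3) and 0 (knockout cXENp3 against XEN). For XEN against ESC that filter left no member. With any value above 0 tested, 24 of 38 members were called in XEN against ESC. A pseudocount of 0.1 gave 14 calls for cXENp3 against ESC, 1 for the knockouts in ESC and 0 for knockout cXENp3 against XEN, and quantile normalization gave 0 for the last. The member counts in this paragraph carry no share of all genes, so they show only how the calls depend on the settings. With the prefix term, cXENp3 against ESC gave 0 calls. The ESC level then rests on the KO2.6 library alone, and the cause was not tested. Without XENB1 or XEN5, the filter removed all 8 called members of XEN against ESC, so the lowest count below for that comparison was set by the filter. Leaving out each line in turn gave 15 to 26 calls for cXENp3 against cXENp1, 0 to 11 for cXENp3 against ESC, 0 to 9 for XEN against ESC, 0 to 2 for the knockouts in ESC, 3 to 6 at cXENp3, 0 to 3 for the interaction from cXENp1 to cXENp3 and 0 to 1 for knockout cXENp3 against XEN.

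Each line was sampled at every stage, so the line was the block in the stage comparisons. Without the replicate block, 28, 25 and 6 members were called in the 3 stage comparisons, and with it in the genotype fits 8 at cXENp3, 3 in the later interaction and 1 against XEN, so the block changed no count by over 1.5 times. Quantile normalization moved the median of all genes by over 0.1 only for the knockouts at cXENp3 (by -0.11, from 0.01 to -0.10). It moved the share of higher calls among all called genes from 57.2% to 47.2% for cXENp3 against ESC, from 75.0% to 64.0% for the knockouts at cXENp1 and from 64.1% to 49.9% for knockout cXENp3 against XEN. Precision rests on 2 to 4 libraries a group, and levels under about 1 FPKM, where most ESC values lie, are compressed by the pseudocount.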
